A study of Homo sapiens with 4 samples.

Results

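The family of miR-130, miR-301 and miR-454 was followed in small RNA libraries of HCT116 cells, an established human colorectal carcinoma line, through 8 mature miRNAs chosen by name: hsa-miR-130a-3p, hsa-miR-130b-3p, hsa-miR-130b-5p, hsa-miR-301a-3p, hsa-miR-301a-5p, hsa-miR-301b-3p, hsa-miR-454-3p and hsa-miR-454-5p, written without the species prefix from here on. They are 8 of the 1644 miRNA names in the count table and hold 129 of its 12689 isoforms (1.02%), where reads of a miRNA that start and stop at the same bases form 1 isoform. All 8 had a mean of at least 50 reads over the 4 libraries. The study asked how mismatches and wobble base pairs in the stems of pri-miRNAs steer cleavage by Microprocessor, and none of the transfected pri-miRNAs encodes a family member, so the family was measured here as an endogenous one.

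Each library came from cells given 1 plasmid mixture in Lipofectamine. The empty library had the pcDNA3 vector alone. The wild-type library had pcDNA3 plasmids of pri-mir-342, pri-mir-30a, pri-mir-200b, pri-mir-885, pri-mir-142, pri-mir-128-1, pri-mir-576 and pri-mir-30d, while the mutant 1 library had a stem variant of each. The mutant 2 library had a variant of pri-mir-342 filled up with empty vector. The last 3 mixtures also held a pri-mir-16-1 plasmid, and the 2 mutant labels were matched to the mixtures by the order in which the study lists them. No condition has a replicate, so no test between conditions was possible, and every interval below is a 95% interval of counting error only, since the reads carry no molecular identifiers. In place of replicate error, differences are set, where reads sufficed and a background was computed, beside the spread of untransfected miRNAs, those that no deposited plasmid sequence encodes.

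The libraries held 14544516 to 19834361 miRNA reads, of which 70.5% to 92.0% were of untransfected miRNAs. Levels are reads per 1000000 of these untransfected reads, unless another scale is named. The 8 members took 0.617% of them with the empty vector, 0.630% with the wild-type plasmids, 0.687% with the mutant 1 set and 0.619% with the mutant 2 set. All 6 listed markers of intestinal epithelium had reads in every library, with a summed level of 22665.6 to 25440.9, but they were far from even. In the mutant 2 library miR-141-3p was at 10346.2, miR-200c-3p at 9898.3, miR-192-5p at 2387.2 and miR-429 at 1228.8. There miR-194-5p and miR-215-5p were only at 34.4 and 29.2, so the sum mainly reflects miR-141-3p and miR-200c-3p. Listed markers of blood cells summed to 4.86 to 6.15, those of neurons to 0.499 to 0.735 and that of liver, miR-122-5p, to 0.570 to 1.23. The muscle markers miR-1-3p, miR-133a-3p and miR-206 and the neuronal miR-124-3p were at 0, but only unambiguous reads were counted, and several of these miRNAs are encoded at more than 1 locus.

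A miRNA finds its target mRNAs mainly through its seed, the bases from the second to the eighth of its 5′ end, so miRNAs that share a seed share many targets, and a shift of the 5′ end changes them. DROSHA and DICER cut a hairpin precursor into a 5p and a 3p strand, of which one is usually kept in Argonaute, and the 3′ end of that strand is then open to trimming and tailing. The 3p strands of miR-130, miR-301 and miR-454 share 1 seed. The family is known for being high in several carcinomas.

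The 3p sequences show what the members share and where they part. They are from the RefSeq table for GRCh38.p14, which holds 1460 of the 1644 miRNA names and 7 of the 8 members, without miR-130a-3p. The seed is in capitals, the fifth line gives a miRNA whose seed equals that of the miR-130b and miR-301 strands moved upstream by 1 nt, and the last line one whose seed matches the family seed moved downstream by 1 nt except at its last base.
miR-130b-3p: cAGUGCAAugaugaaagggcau
miR-301a-3p: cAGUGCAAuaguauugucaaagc
miR-301b-3p: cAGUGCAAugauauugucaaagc
miR-454-3p: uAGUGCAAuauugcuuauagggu
miR-148a-3p: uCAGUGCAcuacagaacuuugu
miR-19a-3p: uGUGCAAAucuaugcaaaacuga
Past the shared seed, miR-301a-3p and miR-301b-3p differ only by A10G and G11A, with positions counted from 1 at the 5′ end. The miR-130b-3p sequence matches miR-301b-3p through base 12 and then parts from it at 9 positions from G13A to U22G. The 5p strands carry no common seed, with CUCUUUC in miR-130b-5p, CUCUGAC in miR-301a-5p and CCCUAUC in miR-454-5p. In the RefSeq table miR-3666 and miR-4295 also carry AGUGCAA, but the counts hold no isoform of either.

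The family is encoded at 3 places in the genome (GRCh38, GENCODE annotation). MIR301B (chr22:21652981-21653058, plus strand) lies in intron 1 and MIR130B (chr22:21653304-21653385) in exon 2 of the same lncRNA gene, ENSG00000207751, with 245 bases between them. MIR301A (chr17:59151136-59151221, minus strand) and MIR454 (chr17:59137758-59137872) both lie in intron 1 of SKA2, a gene for a kinetochore protein, with 13263 bases between them. MIR130A (chr11:57641198-57641286, plus strand) lies in intron 1 of the lncRNA gene MIR130AHG. Hairpins of 1 gene of each shared locus are printed because both of their arms had enough reads to compare, with the annotated 5p and 3p miRNAs in capitals.
MIR130B: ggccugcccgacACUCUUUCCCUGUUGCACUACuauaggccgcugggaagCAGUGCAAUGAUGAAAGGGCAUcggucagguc
MIR454: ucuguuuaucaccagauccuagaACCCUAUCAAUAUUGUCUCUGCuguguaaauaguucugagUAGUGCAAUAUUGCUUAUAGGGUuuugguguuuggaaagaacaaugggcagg

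HCT116 cells held all 5 seed-sharing strands, with miR-301a-3p highest in every library. Its level was 2468.0 in the empty, 2618.7 in the wild-type, 3327.9 in the mutant 1 and 2713.8 in the mutant 2 library, and it ranked between 36 and 43 among the 1315 to 1354 untransfected miRNAs with a read. The next was miR-130b-3p at 1496.2, 1379.6, 1050.8 and 1211.8 in the same order. The mutant 1 library was thus the highest for miR-301a-3p and the lowest for miR-130b-3p.

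The level of miR-301b-3p was 890, 911, 1051.9 and 897 in the empty, wild-type, mutant 1 and mutant 2 libraries. For miR-130a-3p, from the only locus that holds a single member gene, it was 737, 790, 676 and 741. The least abundant of the shared-seed strands was miR-454-3p at 459, 462, 651 and 509. Of these, miR-301b-3p and miR-454-3p were highest in the mutant 1 library, as miR-301a-3p was, while miR-130a-3p was lowest there, as miR-130b-3p was.

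The order miR-301a-3p, miR-130b-3p, miR-301b-3p, miR-130a-3p, miR-454-3p held in all 4 libraries at each step but the second. There the ratio of miR-130b-3p to miR-301b-3p ran from 1.68 down to 0.999, and in the mutant 1 library the pair could not be told apart (1050.8, interval 1033.9 to 1067.9, against 1051.9, interval 1035.0 to 1069.0). The step from miR-130a-3p to miR-454-3p shrank to a ratio of 1.04 in the mutant 1 library, from up to 1.71 elsewhere. The order is one of reads, since adapter ligation takes up some miRNA sequences more readily than others.

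The 5p strands were rarer. The level of miR-130b-5p was 91.0, 97.5, 74.8 and 86.2 in the empty, wild-type, mutant 1 and mutant 2 libraries. That of miR-454-5p was 27.1, 34.4, 23.8 and 26.4, and that of miR-301a-5p was 7.17, 10.6, 8.34 and 8.19, from 96 to 130 reads. All 3 were highest in the wild-type library, and miR-130b-5p and miR-454-5p were lowest in the mutant 1 library.

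Added over the 5 strands, reads of any start came to 6049.4 (interval 6007.8 to 6091.3) in the empty and 6160.8 (6116.9 to 6205.0) in the wild-type library. They came to 6758.4 (6715.4 to 6801.6) in the mutant 1 and 6072.7 (6033.5 to 6112.1) in the mutant 2 library. The highest of these sums was 1.12 times the lowest. Reads at the annotated start, which keep the family seed, came to 5935.6, 6044.5, 6656.4 and 5964.4 in the empty, wild-type, mutant 1 and mutant 2 libraries. Single members spread more, from 1.17 times for miR-130a-3p to 1.48 times for miR-301a-5p. Over 476 untransfected miRNAs the same quotient had a median of 1.38 with quartiles of 1.22 and 1.60, so every member lay below the upper quartile.

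The makeup of the family's 3p reads differed between libraries by more than counting error. The share of miR-301a-3p in the family's 3p reads was 40.8% in the empty, 42.5% in the wild-type, 49.2% in the mutant 1 and 44.7% in the mutant 2 library. That of miR-130b-3p was 24.7%, 22.4%, 15.5% and 20.0%. The Wilson intervals of these shares, each less than 1 percentage point wide, did not overlap between any of the 4 libraries for either strand. They cover counting error only, and no background over other miRNAs was computed for such shares, while the levels behind them varied less than the upper quartile given above.

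In percentage points the shares of the others moved less. For miR-301b-3p the share was 14.7% in the empty, 14.8% in the wild-type, 15.6% in the mutant 1 and 14.8% in the mutant 2 library. For miR-130a-3p it was 12.2% in the empty, 12.8% in the wild-type, lower (interval 9.82% to 10.2%) in the mutant 1 and 12.2% in the mutant 2 library, and for miR-454-3p 7.58%, 7.49%, 9.64% and 8.38%. The mutant 1 library stood at one end for all 5 strands.

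Between libraries, 0 of the 8 members passed 2-fold in any comparison on this scale. Past that fold were 1.91% of the untransfected miRNAs (those that averaged 50 reads or more in the compared libraries) for the wild-type library, 3.82% for mutant 1 and 1.44% for mutant 2 over the empty one, and 1.49% for mutant 1 over wild-type. At 1.5-fold the members were again 0 of 8 in each, beside 10.8%, 20.6%, 9.26% and 14.9% of untransfected miRNAs. The first 3 comparisons share the empty library and are therefore not independent of one another.

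In the wild-type library every 3p strand was within 1.1-fold of the empty library. The lowest ratio was that of miR-130b-3p, 0.922 (interval 0.903 to 0.941), and those of miR-130a-3p, miR-301a-3p, miR-301b-3p and miR-454-3p were 1.07, 1.06, 1.02 and 1.01. The 5p strands miR-301a-5p and miR-454-5p had the highest ratios, 1.48 (1.14 to 1.93) and 1.27 (1.10 to 1.46), the former with an interval that spans 1.5-fold. The median log2 ratio of the 8 members was 0.09, as was that of 471 untransfected miRNAs, whose SD was 0.40.

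The mutant 1 library set the members apart from each other. Over the empty library, miR-454-3p had a ratio of 1.42 (1.38 to 1.47), at percentile 88.7 of the untransfected miRNAs. The ratio of its SKA2 neighbour miR-301a-3p was 1.35 (1.33 to 1.37) and that of miR-301b-3p was 1.18 (1.15 to 1.21). On the other side, miR-130b-3p stood at 0.702 (0.688 to 0.717), at percentile 15.3, miR-130b-5p at 0.822 (0.756 to 0.892) and miR-130a-3p at 0.918 (0.893 to 0.944). With 4 members above and 4 below, their median log2 ratio was 0.05, beside -0.02 and an SD of 0.49 over the untransfected miRNAs.

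The mutant 2 library lay closer to the empty one. The ratio of miR-130b-3p was 0.810 (0.794 to 0.826), at percentile 12.3 of the untransfected miRNAs. Those of miR-454-3p and miR-301a-3p were 1.11 (1.07 to 1.15) and 1.10 (1.08 to 1.12), while miR-130a-3p and miR-301b-3p were both at 1.01 with intervals that include 1. In direction, miR-130b-3p was below 1 over the empty library in all 3 comparisons on every scale tried, while miR-301a-3p was above 1 in all 3 on this scale only, since in the wild-type library its ratio was 0.813 with all miRNA reads, 0.989 with TMM, 0.985 with DESeq2 size factors and 0.517 with miR-16-5p reads as the base.

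Mutant 1 over wild-type, the comparison that leaves the empty library out, gave 1.41 (1.37 to 1.46) for miR-454-3p, at percentile 95.5, and 1.27 (1.25 to 1.29) for miR-301a-3p. It gave 0.762 (0.745 to 0.779) for miR-130b-3p, 0.692 (0.600 to 0.799) for miR-454-5p and 0.785 (0.612 to 1.01) for miR-301a-5p. The arms of miR-454 thus went opposite ways. Those of miR-301a did so in direction, with a 5p interval that includes 1. The median log2 ratio of the members was -0.29, and that of the untransfected miRNAs -0.15 with an SD of 0.39.

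The scale decides the direction of several of these ratios. The study divided by miR-16-5p reads, and the plasmid of pri-mir-16-1 was in every mixture but the empty one. On that scale the median log2 ratio of untransfected miRNAs over the empty library was -0.95 in the wild-type, -1.07 in the mutant 1 and -1.24 in the mutant 2 library. On it all 5 3p strands were lower than in the empty library in each, for example 0.650 for miR-301a-3p in mutant 1, and 3 members in wild-type, 4 in mutant 1 and 8 in mutant 2 were past 2-fold. With all miRNA reads as the base, miR-301b-3p turned to 0.908 in mutant 1 over empty. The ratios of miR-454-3p and miR-301a-3p in mutant 1 over empty stayed above 1 on all scales but that of miR-16-5p, at 1.09 to 1.54 and 1.04 to 1.46, and that of miR-130b-3p stayed below 1 on all.

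Base composition moved with the ratios of the mutant 1 library. In mutant 1 over empty the median log2 ratio was 0.07 for untransfected miRNAs of up to 40% GC, -0.04 for those over 40 to 50% and -0.09 above that, each with quartiles far wider than these differences (-0.21 to 0.28 in the first group). In mutant 1 over wild-type the medians were -0.03, -0.13 and -0.25, while in wild-type over empty they were 0.08, 0.09 and 0.11 and in mutant 2 over empty 0.06, 0.04 and 0.06. Of the 3p strands with a printed sequence, those that were higher are the GC-poor ones (miR-454-3p 34.8%, miR-301a-3p and miR-301b-3p 39.1%), and miR-130b-3p has 45.5%. The 5p strands did not follow this order as closely. At 40.9% GC, miR-454-5p and miR-301a-5p had ratios of 0.880 and 1.16 over empty and of 0.692 and 0.785 over wild-type. At 47.6%, miR-130b-5p had 0.822 and 0.767. The sequence of miR-130a-3p, which was also lower, was not at hand. The part of GC content in the result was not tested.

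A pair of strands from 1 annotated host gene allows a comparison that needs no scale. The ratio of miR-301b-3p to miR-130b-3p reads was 0.595 (0.582 to 0.609) in the empty, 0.660 (0.645 to 0.676) in the wild-type, 1.00 (0.978 to 1.02) in the mutant 1 and 0.740 (0.724 to 0.757) in the mutant 2 library. The intervals did not overlap between any 2 libraries. The ratio was 1.68 (1.63 to 1.74) times as high in mutant 1 as in empty and 1.52 (1.47 to 1.57) times as high as in wild-type. Both pass 1.5-fold, but so did 36.8% of 38 pairs of neighbouring untransfected miRNAs in the former comparison and 17.9% of 39 in the latter, and 71.1% and 84.6% of pairs changed less than this one. In wild-type and mutant 2 over empty it changed by 1.11 and 1.24 times, where 26.3% and 55.3% of pairs changed less and 21.1% and 13.2% were past 1.5-fold.

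The SKA2 pair behaved otherwise. The ratio of miR-301a-3p to miR-454-3p was 5.38 in the empty, 5.67 in the wild-type, 5.11 in the mutant 1 and 5.33 in the mutant 2 library. It changed by 0.949 times between empty and mutant 1, where 5.26% of the neighbouring pairs changed less, by 1.05 times between empty and wild-type (15.8% changed less), by 0.991 times between empty and mutant 2 (0% changed less) and by 0.900 times between wild-type and mutant 1 (28.2% changed less). The pair lies further apart than the 10 kb set for neighbours and was added after the values had been seen. The ratio of the SKA2 pair thus ran between 5.11 and 5.67, while that of the chromosome 22 pair ran between 0.595 and 1.00.

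The seed is set by the 5′ end, and it was almost fixed in the family's 3p strands. Together 98.1% of their reads began at the annotated base in the empty, 98.1% in the wild-type, 98.5% in the mutant 1 and 98.2% in the mutant 2 library. By member in the empty library the share was 99.0% for miR-130a-3p and miR-301a-3p, 97.5% for miR-301b-3p, 97.1% for miR-454-3p and 96.9% for miR-130b-3p. The median of 211 untransfected arms was 98.2%, with quartiles of 91.8% and 99.3%. No member with at least 500 reads differed by more than 5 percentage points between libraries, while 1.47% of untransfected arms did for wild-type against empty, 2.90% for mutant 1 against empty, 0.952% for mutant 2 against empty and 2.40% for mutant 1 against wild-type.

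Most of the other reads began 1 nt downstream, at 1.77%, 1.78%, 1.40% and 1.64% of the 3p reads in the empty, wild-type, mutant 1 and mutant 2 libraries. Such reads carry GUGCAAU as seed, which overlaps the seed GUGCAAA of miR-19 except for its last base. Pooled over the 4 libraries they were 2.65% (interval 2.47 to 2.84) of miR-454-3p, 2.48% (2.37 to 2.60) of miR-130b-3p and 2.35% (2.22 to 2.48) of miR-301b-3p, which changed places between libraries. The shares for miR-301a-3p, 1.04% (0.989 to 1.09), and for miR-130a-3p, 0.800% (0.718 to 0.892), were lower, and their intervals did not reach those of the former 3.

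A start 1 nt upstream would give the miR-130b and miR-301 strands CAGUGCA, the seed of miR-148a-3p, miR-148b-3p and miR-152-3p. It was rare, at 0.0778%, 0.0743%, 0.0759% and 0.100% of the 3p reads, and members differed. Over the 4 libraries it was seen in 193 of 69989 reads of miR-130b-3p (0.276%), 77 of 40227 of miR-130a-3p (0.191%) and 13 of 28631 of miR-454-3p (0.0454%). In miR-301a-3p it was seen in 0 of 152835 reads, which allows a share of up to 0.00196%, and in miR-301b-3p in 0 of 51392, which allows up to 0.00584%. In level the upstream reads of all 5 strands came to 4.57 to 6.08. This includes the few of miR-454-3p, which carry UAGUGCA and not the miR-148 seed. In comparison, miR-148a-3p stood at 18205.1 to 20048.4, miR-148b-3p at 4068.1 to 4703.2 and miR-152-3p at 26.2 to 35.5.

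The miR-19 strands, whose seed is close to the downstream one, moved further between libraries than any member. The level of miR-19a-3p was 527, 585, 967 and 681 in the empty, wild-type, mutant 1 and mutant 2 libraries, and its ratio in mutant 1 over empty was 1.83 (1.78 to 1.89). The ratio of miR-19b-3p was 2.50 (2.00 to 3.12), from 107 and 280 reads. It is encoded at more than 1 locus, and ambiguous reads were not counted.

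Among the 5p strands, miR-130b-5p began at its annotated base in 99.2% to 99.6% of reads. For miR-454-5p the share was 89.0% (85.3 to 91.8) in the empty, 96.2% (93.9 to 97.6) in the wild-type, 95.8% (93.1 to 97.5) in the mutant 1 and 91.2% (88.1 to 93.6) in the mutant 2 library, from 334 to 421 reads. Its reads that began 1 nt downstream were 11.0%, 3.80%, 4.19% and 8.75%. The empty library was separate from the wild-type and mutant 1 libraries in these intervals, but with under 500 reads the arm is outside the set for which a background was counted. For miR-301a-5p the share was 87.5%, 89.2%, 94.9% and 89.5%, with overlapping intervals.

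The 3′ ends separated the members far more than the 5′ ends did, and the 3p strands kept their order in all libraries. The share of reads with the annotated 3′ end was 97.8%, 97.0%, 97.3% and 97.3% for miR-301b-3p and 94.3%, 94.1%, 93.9% and 93.8% for miR-301a-3p, in the order empty, wild-type, mutant 1, mutant 2. For miR-130b-3p it was 76.2%, 77.3%, 80.7% and 78.5%. For miR-130a-3p it was 39.8%, 43.8%, 46.0% and 43.1%. The median of untransfected arms in the empty library was 54.1% with quartiles of 19.5% and 79.8%, so the miR-301 strands lay above the upper quartile, higher than 97.2% and 91.5% of these arms.

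Of the 3p strands, miR-454-3p had the smallest share at the annotated base, with 29.0%, 29.4%, 29.4% and 26.1%. Its most frequent isoform in every library was 1 nt longer, and reads with a longer end made up 68.9%, 67.3%, 67.6% and 70.5%. In the printed hairpin the 2 bases after the miR-454-3p arm are UU. Because mismatches at the 3′ end were allowed by the authors, reads that follow the hairpin and reads with an added base cannot be told apart in the counts. In miR-130a-3p the reads spread both ways, with 22.7% ending 1 nt short, 17.8% ending 2 nt short and 19.4% ending 1 nt long in the empty library.

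In miR-130b-5p the annotated end was almost unused, at 0.739%, 1.17%, 2.19% and 1.76% of reads. The isoform 1 nt longer made up 97.1%, 97.9%, 95.2% and 96.2%. It is printed as the hairpin continues, with the next hairpin base in capitals, since the counts hold offsets and not the bases read.
miR-130b-5p, 1 nt longer: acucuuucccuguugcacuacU
The share for miR-301a-5p at the annotated end was 82.3% to 85.5%. That for miR-454-5p was 59.7% (54.5 to 64.6) in the empty, 65.3% (60.7 to 69.7) in the wild-type, 66.5% (61.2 to 71.3) in the mutant 1 and 73.8% (69.2 to 77.8) in the mutant 2 library. The difference of 14.1 points (7.39 to 20.6) between mutant 2 and empty was larger than that of any other member in any comparison, in an arm of 334 to 421 reads, too few for the background that was counted.

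Between libraries, 1 of the 6 members with at least 500 reads changed its share at the annotated 3′ end by more than 5 percentage points in any comparison. This was miR-130a-3p in mutant 1 against empty, by 6.25 points (4.85 to 7.64), where 19.3% of untransfected arms passed 5 points. In the other comparisons 0 of 6 did, beside 6.86% for wild-type against empty, 6.67% for mutant 2 against empty and 19.2% for mutant 1 against wild-type. Shortened reads fell, from 40.7% of miR-130a-3p in the empty to 34.6% in the wild-type, 32.1% in the mutant 1 and 35.4% in the mutant 2 library. Reads with a longer end rose by less, with 19.5%, 21.6%, 21.8% and 21.5% in the same order. For miR-130b-3p the shortened reads were 23.7%, 22.6%, 19.2% and 21.4%.

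Shortened reads of both strands were thus highest in the empty and lowest in the mutant 1 library. For miR-130a-3p they were over 5 points below the empty library in each of the others, as they were in 5.88% of untransfected arms for wild-type, 23.2% for mutant 1 and 9.05% for mutant 2, and 21.6% of arms were so in mutant 1 against wild-type, without a member of 500 reads or more. The median difference of 207 untransfected arms in mutant 1 against empty was -1.50 points. The difference was -8.59 points (-9.94 to -7.24) for miR-130a-3p and -4.52 points (-5.39 to -3.65) for miR-130b-3p, while that of miR-454-3p was 0.777 points (0.263 to 1.27).

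All 5 precursors were represented by their 3p arm. The 5p share of the reads of both arms was 5.73%, 6.60%, 6.64% and 6.64% for miR-130b and 5.57%, 6.93%, 3.53% and 4.94% for miR-454, in the empty, wild-type, mutant 1 and mutant 2 libraries. It was 0.290%, 0.404%, 0.250% and 0.301% for miR-301a. The opposite arms of the other members, miR-130a-5p and miR-301b-5p, had 20 to 43 and 17 to 28 reads, which is 0.210% to 0.443% and 0.140% to 0.250%. In the empty library the rarer arm of 140 untransfected miRNAs had a median share of 2.71% with quartiles of 0.367% and 9.50%, and 57 of these had more 3p than 5p reads. In that library the shares of miR-301a, miR-130a and miR-301b were below the lower quartile and those of miR-130b and miR-454 above the median. Counting only the most abundant isoform of each arm raised the share of miR-130a there from 0.243% to 0.537%.

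Changes of the arm ratio were computed for miR-130b, miR-301a and miR-454, since the 5p arms of miR-130a and miR-301b had too few reads. For miR-454 the ratio of 5p to 3p reads in mutant 1 was 0.620 (0.532 to 0.721) times that in empty, which is past 1.5-fold, as it was for 45.5% of 121 untransfected pri-miRNAs. Against wild-type it was 0.491 (0.423 to 0.569) times, past 2-fold, where 6.61% of 121 passed. In the same comparison miR-301a changed by 0.618 times (0.481 to 0.794), past 1.5-fold with 23.1% of pri-miRNAs, and miR-130b by 1.01 times (0.925 to 1.10). No other comparison took the ratio of miR-130b, miR-301a or miR-454 past 1.5-fold, beside 18.9% of pri-miRNAs in wild-type over empty and 15.7% in mutant 2 over empty. Past 2-fold were 7.38% in wild-type, 15.7% in mutant 1 and 6.30% in mutant 2 over empty. These changes were computed after the arm shares had been seen.

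The miRNAs whose levels followed the summed 3p strands most closely over the 4 libraries, by the root mean square difference of log2 levels centred on their means, were miR-374a-3p at 0.025, miR-21-5p at 0.036 and miR-186-5p at 0.043, of 166 untransfected miRNAs that averaged 1000 reads or more. The level of miR-374a-3p was 422, 443, 493 and 441 in the empty, wild-type, mutant 1 and mutant 2 libraries. With only 4 points, each a single library, the likeness is a description.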

How the data were processed

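Small RNA of 4 transfections of HCT116 cells was sequenced in 1 TruSeq library each. The authors trimmed adapters with cutadapt, kept reads of 18 to 26 nt, aligned them to hg38 with Bowtie2 and assigned unambiguous reads, with mismatches at the 3′ end only, to miRBase release 22. The deposited counts are raw reads per isoform, without normalization, each with the offsets of its ends from the annotated ends. The sign of the 3p offset was settled on the file: only when values above 0 mean a shorter read do all 10981 isoforms with a known mature sequence fall within 18 to 26 nt, and other readings put 735 to 1707 outside. A second deposited table with the sequences of the plasmids set which miRNAs are untransfected, and the members are among these.

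Counts were summed over isoforms and divided by the untransfected miRNA reads, since pri-mir-16-1, the study's reference, was itself transfected. Intervals are exact Poisson (levels), Wilson (shares), Newcombe (differences) and log-normal (ratios). Differences were called past 2-fold or 1.5-fold with a mean of at least 50 reads in the 2 libraries, and past 5 percentage points with at least 500 reads in both. A count of 3 was taken as what 0 allows. Alternatives were all miRNA reads, miR-16-5p reads, edgeR 4.0.16 TMM and DESeq2 1.42.0 size factors (R 4.3.3), other minimums, a pseudocount of 1, and subsets of isoforms. Ratios within a locus past 10 kb, GC groups, changes of arm ratio and shortened ends were added after the values had been seen. The named miRNAs were the members and their opposite arms, listed cell type markers, those with the same seed or one equal or close to that seed moved by 1 nt, and the 3 closest to the summed 3p strands. The members and lists were chosen with earlier results of these data known. Positions are from GENCODE release 44. Python 3.11.15, pandas 2.3.3, numpy 2.4.6, scipy 1.17.1 and matplotlib 3.10.9 were used. On simulated data the 2-fold call was tested only with changes larger than 2-fold, and the Wilson, Newcombe and ratio intervals were tested too. The in vitro assays were not analysed here.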

Additional observations from a re-analysis of the deposited data

How the results depend on the processing

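The family has 1 library per condition, so differences between transfections cannot be separated from differences between libraries, and few reads limit miR-301a-5p (96 to 130), miR-130a-5p (20 to 43), miR-301b-5p (17 to 28) and the ends of miR-454-5p (334 to 421). No paired analysis was possible because each condition has a single library and no result comes from a test. Members past 2-fold were 0 in every comparison as reported, and with miR-16-5p scaling 3 in wild-type, 4 in mutant 1 and 8 in mutant 2 over empty. Members past 1.5-fold were 0 in every comparison as reported. With miR-16-5p scaling they were 7 in wild-type, 7 in mutant 1 and 8 in mutant 2 over empty. With all miRNA reads they were 2 in mutant 1 over empty, and with TMM or DESeq2 size factors 1 in mutant 1 over empty and 1 in mutant 1 over wild-type, which was miR-454-3p at 1.54 and 1.64 with TMM.

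The background of untransfected miRNAs past 2-fold was 9 in wild-type, 18 in mutant 1 and 7 in mutant 2 over empty and 7 in mutant 1 over wild-type. With miR-16-5p scaling the first 3 became 204, 268 and 383, and with all miRNA reads mutant 1 over empty became 47. In the same order, a minimum mean of 10 reads gave 62, 89, 55 and 72, one of 200 reads gave 1, 6, 3 and 1, no minimum with a pseudocount of 1 gave 403, 418, 383 and 438, and a 1.5-fold threshold gave 51, 97, 45 and 70. TMM and DESeq2 size factors kept all 4 within 1.5 times.

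Shares and ratios within a library need no scaling. Restricting reads to the annotated 5p start moved 0 of 8 ratios of a locus, 0 of 20 arm shares, 2 of 20 shares in the seed pool and 4 of 32 shares at the 3′ end by more than their interval, and counting only the most abundant isoform of each arm moved 15 of 20 arm shares.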
